A study of Mus musculus with 6 samples.

Results

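The genes described here are the 8 that code for collagen chains of cartilage: *Col2a1*, *Col9a1*, *Col9a2*, *Col9a3*, *Col10a1*, *Col11a1*, *Col11a2* and *Col27a1*. They were matched by symbol, as a family named with earlier results of these data known but by no threshold on a measured value, and all 8 were found among the 55487 gene IDs of the count table. RNA-Seq had been carried out on rib cages of 16.5 dpc mouse embryos, dissected and cleaned of connective tissue. The control group held 3 embryos labelled wild type (E420, E434 and E435), and the mutant group held 3 embryos labelled Col2-cre;Foxc1-/-;Foxc2-/- (E423, E433 and E440). In the mutants, Cre recombinase is driven by *Col2a1* regulatory sequence and removes floxed alleles of the forkhead genes *Foxc1* and *Foxc2* in cells in which the driver is active. In the study, Cre activity was described for chondrocytes of the growth plate, the perichondrium and the primary ossification center of the limb, and it was not measured in these rib cages. The embryos came from crosses of males carrying Col2-cre and 1 deleted copy of each gene with floxed females on a mixed background, the control skeletons of the study lacked the Cre transgene, and the study describes its comparisons as made among littermates without giving, in the sources used here, which embryos shared a litter.

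Cartilage is built on a fibril in which type II collagen, made of *Col2a1* chains, is the main component. Type XI collagen chains (*Col11a1*, *Col11a2*) lie within the same fibril and limit its width, and type IX collagen, assembled from the chains of *Col9a1*, *Col9a2* and *Col9a3*, sits on its surface and links it to the surrounding matrix. Type X collagen (*Col10a1*) is a short, network-forming collagen made by hypertrophic chondrocytes, the enlarged cells of the growth plate next to forming bone, and type XXVII collagen (*Col27a1*) is a fibrillar chain of cartilage and of the zone of calcification. SOX9, together with SOX5 and SOX6, drives the chondrocyte collagen genes, and RUNX2 and MEF2C act on *Col10a1*. As these are whole rib cages, fewer chondrocytes, a larger share of other tissue and less collagen RNA per chondrocyte cannot be told apart in any of the values below. Collagen RNA from cells other than chondrocytes was not separated out.

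On the GRCm38 build used for the counts, *Col2a1* (ENSMUSG00000022483.17) spanned chr15:97975602-98004695 on the minus strand with 9243 exonic bases. The type IX chains lay on 3 chromosomes, *Col9a1* at chr1:24177610-24252684, *Col9a2* at chr4:121039385-121055322 and *Col9a3* at chr2:180597790-180622189, all on the plus strand. *Col11a1* occupied chr3:114030540-114220718 and *Col11a2* chr17:34039437-34066685, and *Col27a1* occupied chr4:63214004-63334991, each on the plus strand. *Col10a1* (ENSMUSG00000039462.4) was the smallest gene, with 3 exon blocks in chr10:34389981-34397085, and it lay within *Nt5dc1* on the opposite strand, with 18 exonic bases in common. *Col9a3* shared 234 of its 3853 exonic bases with *Tcfl5* on the opposite strand, and the counting was not stated to use strand. *Col27a1* holds the microRNA gene *Mir455* in an intron, with 0 exonic bases in common.

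The RefSeq promoter table (GRCm38.p6) held windows for 6 of the 8 genes, and the 250 bases before the start site are printed for 3 of them. These were *Col9a1*, *Col11a2* and *Col10a1*, which differed in spread over the libraries, with an SD of log2 CPM of 2.51, 1.75 and 1.08. They are points in a graded series over the 8 genes, described further on, and not separate classes. All 3 lie on the plus strand, at chr1:24177360-24177609 for *Col9a1*, chr17:34038888-34039137 for *Col11a2* and chr10:34389731-34389980 for *Col10a1*. Capitals mark letters that match, on either strand, the SOX core ACAAAG, its variant spelled ACAATG, the forkhead core TAAACA, the RUNX core TGTGGT or the TATA box TATAAA.
Col9a1: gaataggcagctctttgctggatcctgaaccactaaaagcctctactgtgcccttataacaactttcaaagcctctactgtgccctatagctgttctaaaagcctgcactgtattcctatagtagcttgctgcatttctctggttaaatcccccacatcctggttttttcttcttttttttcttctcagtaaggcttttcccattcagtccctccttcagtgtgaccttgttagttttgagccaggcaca
Col11a2: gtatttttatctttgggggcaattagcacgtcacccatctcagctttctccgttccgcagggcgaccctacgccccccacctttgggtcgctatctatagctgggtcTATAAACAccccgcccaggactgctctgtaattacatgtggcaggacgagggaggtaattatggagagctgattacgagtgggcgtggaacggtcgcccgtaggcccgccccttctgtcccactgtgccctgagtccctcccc
Col10a1: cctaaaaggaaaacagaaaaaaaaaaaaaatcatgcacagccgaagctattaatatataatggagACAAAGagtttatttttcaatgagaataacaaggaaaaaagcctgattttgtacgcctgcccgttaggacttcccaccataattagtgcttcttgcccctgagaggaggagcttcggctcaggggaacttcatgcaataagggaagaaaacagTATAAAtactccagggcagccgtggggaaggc
The *Col10a1* window held TATAAA with 26 bases between it and the start site, and ACAAAG with 179 bases between. In the *Col11a2* window, the TATA box and the forkhead core overlapped in a single run of capitals, the former with 137 bases and the latter with 135 bases to the RefSeq start site. That site directly follows the end of the window at 34039137, while the gene model used for the counts begins further on, at 34039437. The *Col9a1* window, the first of 2 in the table, held none of the 5 motifs, and neither did the second or those of *Col9a2*, *Col11a1* and *Col27a1*. Among all 32851 windows of this length, the first SOX core was present in 16.46%, its variant in 10.69%, the forkhead core in 12.03%, the RUNX core in 14.05% and the TATA box in 12.37%, so these matches are a description of letters only. The windows also differed in base composition: GC content was 41.6% for *Col10a1* and 43.6% for *Col9a1*, against 57.6% for *Col11a2* and a median of 52.4% over all windows.

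Library size did not separate the groups, with 37853988 to 47794799 counts assigned to genes per library, and every collagen gene had at least 1261 counts in every library, so counting error was small beside the differences described here. The targeted genes were low in all mutants. *Foxc1* measured 23.1, 36.9 and 24.2 CPM (counts scaled to a common library size, with TMM factors) in E420, E434 and E435, against 3.56, 9.61 and 3.51 in the mutants E423, E433 and E440. *Foxc2* measured 1.99, 4.83 and 3.22 CPM among controls, against 0.649, 1.14 and 0.737 among mutants. The log2 fold changes were -2.34 ± 0.452 for *Foxc1* and -1.99 ± 0.388 for *Foxc2* (SE), with edgeR adjusted p of 0.235 and 0.239 and DESeq2 adjusted p of 9.6e-07 and 0.000207. Libraries E434 and E433 each stood apart from the other libraries of their group. The standard deviation of the log2 ratio over genes was 0.155 between E420 and E435 and 0.134 between E423 and E440, against 0.482 to 1.45 for the other 13 library pairs. Mutant E433 was nearer to controls E420 and E435 (0.482 and 0.486) than to mutants E423 and E440 (0.850 and 0.849). It was also nearer to those controls than E423 and E440 were (0.719 to 0.724). Between E434 and E433 the value was 0.833, so they were not alike. Fragment counts in each close pair differed by more than sampling noise, with chi-square values of 5.42 and 2.27 per degree of freedom. By the labels these are separate embryos. With no known technical replicate, the values cannot tell separate embryos from repeat preparations of 1 RNA. Because E434 and E433 differed from the rest of their groups, results that rest on them are given with and without them.

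The cartilage collagens together took 0.223%, 2.53% and 0.214% of all counts in E420, E434 and E435, and 0.0725%, 0.998% and 0.0710% in E423, E433 and E440. The range within each group was thus wider than the distance between the groups. Their summed CPM was 12.2 to 12.8 times higher in E434 than in the other controls, and 12.8 to 13.15 times higher in E433 than in the other mutants.

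*Col2a1*, the main fibril chain, varied most over the 6 libraries. It measured 631, 14427 and 582 CPM in E420, E434 and E435, against 177, 4927 and 162 in E423, E433 and E440. Mutant E433 stood above controls E420 and E435, while E423 and E440 were the lowest libraries, so the groups overlapped. *Col2a1* CPM was 22.9 times higher in E434 than in the higher of the other controls, and 27.8 times higher in E433 than in the higher of the other mutants.

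Among the chains of type IX collagen, *Col9a1* and *Col9a3* followed *Col2a1* more closely than *Col9a2* did. *Col9a1* measured 115, 2096 and 116 CPM among controls, against 30.3, 881 and 31.3 among mutants. *Col9a2* measured 137, 1736 and 136 CPM among controls, against 42.6, 747 and 39.3 among mutants. *Col9a3* measured 147, 2252 and 148 CPM among controls, against 35.7, 1059 and 39.3 among mutants. In all 3 genes E434 was the highest library and E433 the second, E420 and E435 lay together below them, and E423 and E440 were lowest, so that the groups overlapped through E433 alone.

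The type XI chains, which set fibril width, had the same order of libraries with a smaller range. *Col11a1* measured 605, 2552 and 564 CPM among controls, against 227, 992 and 217 among mutants. *Col11a2* measured 290, 2240 and 285 CPM among controls, against 95.2, 734 and 97.5 among mutants. Control E434 exceeded the other controls 4.22-fold for *Col11a1* CPM and 7.71-fold for *Col11a2* CPM, each against the higher of them.

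*Col10a1*, the product of hypertrophic chondrocytes, was raised less in mutant E433 than the other members were. It measured 114, 559 and 113 CPM in E420, E434 and E435, against 75.6, 126 and 73.6 in E423, E433 and E440. The groups still overlapped, because E433 was above E420 and E435. Its CPM in E433 was 1.10 times that of the higher of E420 and E435. The corresponding value was 1.64 for *Col11a1*, 1.95 for *Col27a1* and 2.53 for *Col11a2*, between 5.45 and 7.61 for the type IX chains and 7.81 for *Col2a1*. Within the mutants, *Col10a1* CPM in E433 was 1.67 times that of the higher of the other mutants, where *Col27a1* followed at 2.75 and *Col11a1* at 4.37.

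*Col27a1*, the minor fibrillar chain, varied least. It measured 106, 330 and 101 CPM among controls, against 74.5, 206 and 75.0 among mutants. Over the 6 libraries the SD of log2 CPM was 0.864 for *Col27a1*, 1.08 for *Col10a1*, 1.34 for *Col11a1*, 1.75 for *Col11a2*, between 2.21 and 2.51 for the type IX chains and 2.62 for *Col2a1*. Among the 12995 genes with a mean of at least 5 CPM, 1.85% had an SD of log2 CPM at least that of *Col2a1*, and 4.28% one at least that of *Col10a1*.

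**Figure D1:**
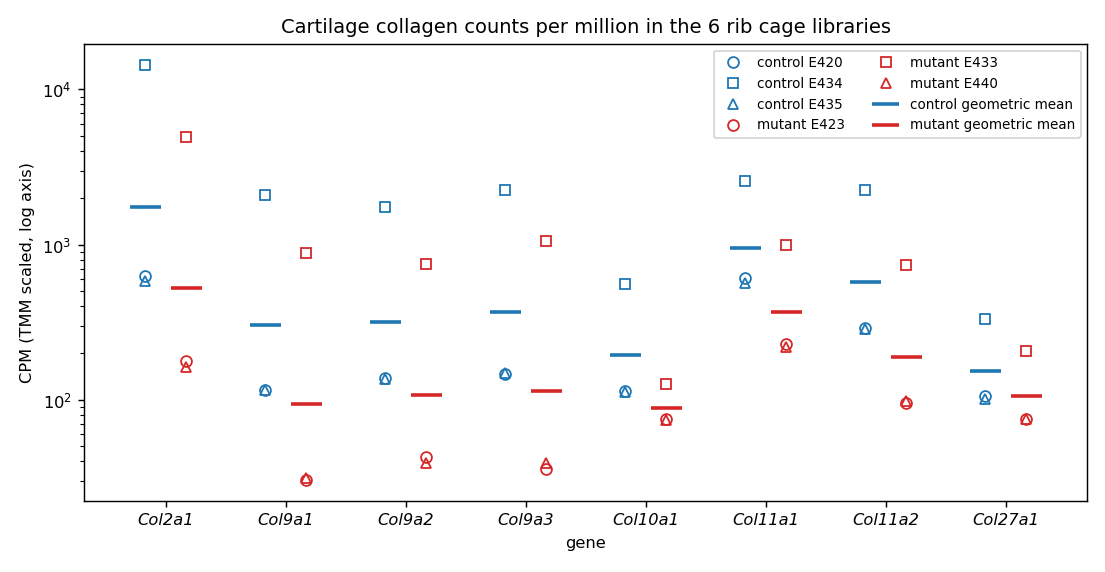
CPM of each cartilage collagen on a log axis, with controls in blue, mutants in red, a symbol for each library and a bar at the group's geometric mean. E434 and E433 (squares) lie above the other libraries of their group for all 8 genes, from 28.2-fold for *Col9a1* in E433 down to 1.67-fold for *Col10a1* in E433, each against the higher of the other 2 libraries.

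The comparison of mutants with controls asked whether the collagen genes change when the forkhead genes are lost from chondrocyte progenitors. All 8 log2 fold changes (mutant over control) were below 0, from -1.60 for *Col11a2* to -0.59 for *Col27a1*, with a median of -1.34, beside a median of 0.0081 over the 26596 genes tested. None of the 8 passed the limits of an adjusted p of 0.1 and a log2 fold change of 1 in edgeR's quasi-likelihood test, a limit that 17 genes (0.0639% of all) passed. At an unadjusted p of 0.05 the count was also 0 of 8, where 10.6% of all genes passed. DESeq2 called 0 of the 3 members to which it gave a p (*Col10a1*, *Col11a1* and *Col27a1*), against 1.79% of all genes, and it gave none for the other 5, in which its outlier rule removed the p. No member had all mutants below all controls, which 8.21% of genes had, or all mutants above all controls, which 6.81% had.

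The intervals were wide. For *Col2a1* the log2 fold change was -1.57 ± 1.76 (SE, n = 3 per group, edgeR adjusted p = 0.780) with a 95% interval of -5.79 to 2.65. The type IX chains had log2 fold changes of -1.30 ± 1.68 for *Col9a1*, -1.28 ± 1.49 for *Col9a2* and -1.17 ± 1.63 for *Col9a3* (SE), with edgeR adjusted p from 0.790 to 0.826. The type XI chains had log2 fold changes of -1.37 ± 0.842 for *Col11a1* and -1.60 ± 1.15 for *Col11a2*, with edgeR adjusted p of 0.597 and 0.654. *Col10a1* had the interval that came closest to excluding 0, with a log2 fold change of -1.51 ± 0.674 (SE), a 95% interval of -3.13 to 0.10 and an edgeR adjusted p of 0.492. *Col27a1* had a log2 fold change of -0.59 ± 0.608 (SE, edgeR adjusted p = 0.758). Each difference lay within the scatter among embryos sharing a genotype label, and all 8 intervals held 0, with lower bounds from -5.79 to -2.05 and upper bounds from 0.10 for *Col10a1* to 2.75 for *Col9a3*.

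The spread came from 2 libraries. When E434 and E433 were left out, 6 of the 8 genes passed both edgeR limits, among 8.25% of all genes tested. *Col2a1* then had a log2 fold change of -1.83 ± 0.050 (SE, n = 2 per group, edgeR adjusted p = 5.4e-17), and the type IX chains lay between -1.97 and -1.73. *Col11a1* had -1.40 and *Col11a2* -1.58. The exceptions were *Col10a1*, with a log2 fold change of -0.60 ± 0.048, and *Col27a1*, with -0.46 ± 0.049 (SE), whose edgeR adjusted p of 2.7e-09 and 2.0e-07 passed the first limit but not the fold limit. In this fit, however, 9425 of the 25045 genes tested had an edgeR adjusted p under 0.1, so passing that limit did not set the collagens apart. The embryos left in each group were the close pairs described above, so the small errors measure the spread within those pairs. Over all fits tried, the edgeR or DESeq2 adjusted p ran from 5.4e-17 to 0.973 for *Col2a1*, from 2.7e-09 to 0.930 for *Col10a1* and from 2.0e-07 to 0.974 for *Col27a1*. Between the libraries left out, CPM in E433 was 0.341 times that in E434 for *Col2a1*, 0.225 times for *Col10a1* and 0.624 times for *Col27a1*, with no replicate of either and no test. Without E434 alone, 6 of the 8 log2 fold changes turned positive, up to 1.53 for *Col2a1*, and without E433 alone the median log2 fold change was -3.66.

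To set the collagens against the rest of the cartilage matrix, the mean log2 CPM of 11 non-collagen cartilage matrix genes was added to the model as a covariate. The log2 fold change of *Col2a1* was then -0.05 ± 0.084, that of *Col9a1* -0.06 ± 0.111, that of *Col9a2* -0.15 ± 0.096, that of *Col9a3* -0.11 ± 0.155 and that of *Col27a1* 0.02 ± 0.081 (SE). *Col11a1* and *Col11a2* remained below 0, with log2 fold changes of -0.62 ± 0.070 and -0.53 ± 0.069 (SE) and edgeR adjusted p of 0.022 and 0.032, beside ranges over all fits of 9.7e-16 to 0.946 and 1.4e-16 to 0.981. Those 2 of 8 genes passed the adjusted p of 0.1 but not the fold limit, in a fit in which 2.06% of all genes had an adjusted p under 0.1. *Col10a1* had -0.54 ± 0.360 (SE, edgeR adjusted p = 0.551). The covariate was measured in the same 6 libraries, and each gene had its own slope on it. These values are therefore differences left after that slope, not ratios to the list and not absolute changes. Without the covariate, *Col11a1* and *Col11a2* had log2 fold changes of -1.37 and -1.60, beside a median of -1.34 for the list. Their mean log2 ratios to *Col2a1* were higher in mutants by 0.35 and 0.15 (exact permutation p = 0.5 and 0.6).

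**Figure D2:**
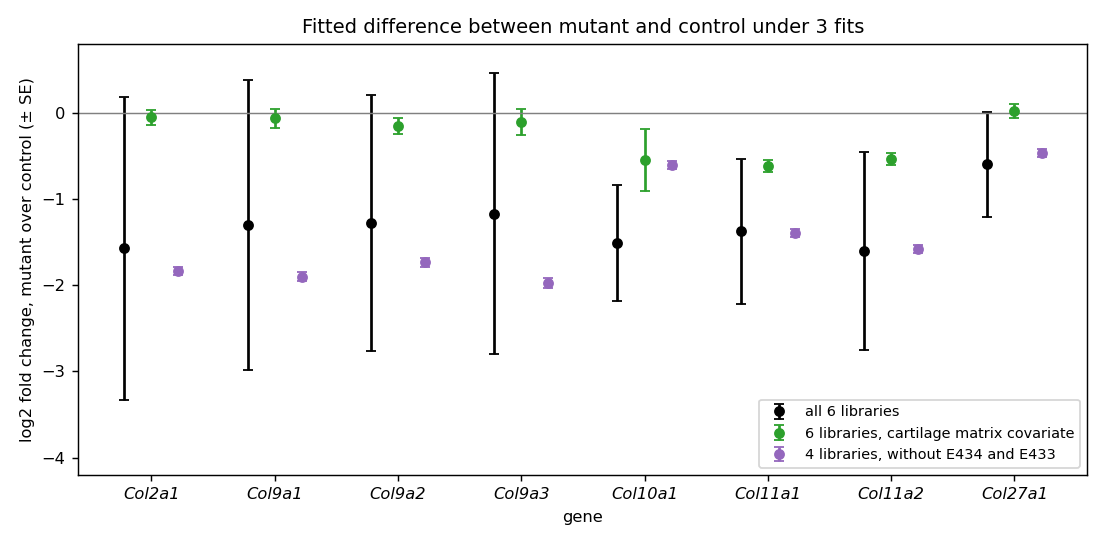
Log2 fold change of mutant over control with its SE for each cartilage collagen, from all 6 libraries (black), with the cartilage matrix covariate (green) and without E434 and E433 (purple). With the covariate, *Col11a1* at -0.62 and *Col11a2* at -0.53 lie below 0 by several times their SE, while *Col2a1* and the type IX chains lie between -0.15 and -0.05.

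Ratios between the genes within a library do not depend on how libraries are scaled. They were formed from counts per kb of exon, and 10 were compared. In 3 against 3 embryos the smallest 2-sided p of the exact permutation test is 0.1. No ratio had groups that did not overlap, and the p-values adjusted over the 10 ratios lay between 0.857 and 1.

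Of the chains that assemble into type IX collagen, *Col9a3* kept a steady proportion to *Col9a1*. The proportion of *Col9a2* to *Col9a1* was less steady, with a 1.695-fold range. The *Col9a3* to *Col9a1* ratio was 1.68, 1.41 and 1.69 in E420, E434 and E435, and 1.55, 1.58 and 1.65 in E423, E433 and E440. While *Col9a1* RPKM itself had a 69.1-fold range over the libraries, the *Col9a3* to *Col9a1* ratio moved 1.19-fold between its extremes. The log2 of that ratio differed by 0.0041 between mutants and controls (exact permutation p = 1.0). The *Col9a2* to *Col9a1* ratio was 1.96, 1.36 and 1.92 in the controls and 2.30, 1.39 and 2.06 in the mutants, lowest in E434 and E433. Its log2 difference between mutants and controls was 0.12 (exact permutation p = 0.5).

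*Col9a1* also kept its proportion to *Col2a1*, with ratios of 0.332, 0.265 and 0.363 in the controls and 0.312, 0.326 and 0.351 in the mutants. The *Col9a2* to *Col2a1* ratio had a 2.01-fold range and was lowest in E434 and E433, at 0.359 and 0.453. The proportion of the type XI chains to *Col2a1* was lower in E434 and E433 than in the other 4 libraries. The *Col11a1* to *Col2a1* ratio was 0.696, 0.128 and 0.703 in the controls and 0.929, 0.146 and 0.968 in the mutants. The *Col11a2* to *Col11a1* ratio was 0.890, 1.63 and 0.936 in the controls and 0.778, 1.37 and 0.833 in the mutants, so that *Col11a2* exceeded *Col11a1* per kb only in E434 and E433 and was below it in the other 4 libraries. Against *Col2a1*, *Col11a1* was higher in E433 than in E434 and higher in E423 and E440 than in E420 and E435, and *Col11a2* against *Col11a1* was lower in the same comparisons. Without E434 and E433, 8 of the 10 ratios had groups that did not overlap, in 2 embryos against 2. The smallest 2-sided p of the exact permutation test is then 0.33. Most of the ratios share *Col2a1* as denominator, and no share over other gene pairs was computed, so this count is a description only.

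The *Col10a1* to *Col2a1* ratio had a wide range, 17.7-fold from lowest to highest library. It was 0.534, 0.114 and 0.573 in E420, E434 and E435, and 1.26, 0.0755 and 1.34 in E423, E433 and E440. Mutants E423 and E440 were the highest libraries and mutant E433 the lowest, so the group means of the log2 ratio, -1.61 ± 1.31 in controls and -0.99 ± 2.37 in mutants (SD, n = 3 each), did not differ beyond the spread (exact permutation p = 0.6). The *Col27a1* to *Col2a1* ratio was 0.119, 0.0162 and 0.123 in the controls and 0.298, 0.0297 and 0.328 in the mutants. For *Col27a1* the ratio was higher in E433 than in E434, and higher in E423 and E440 than in E420 and E435, with a log2 difference of 1.20 between the group means (exact permutation p = 0.5). For *Col10a1* the ratio was higher in E423 and E440 than in E420 and E435, but lower in E433 than in E434.

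**Figure D3:**
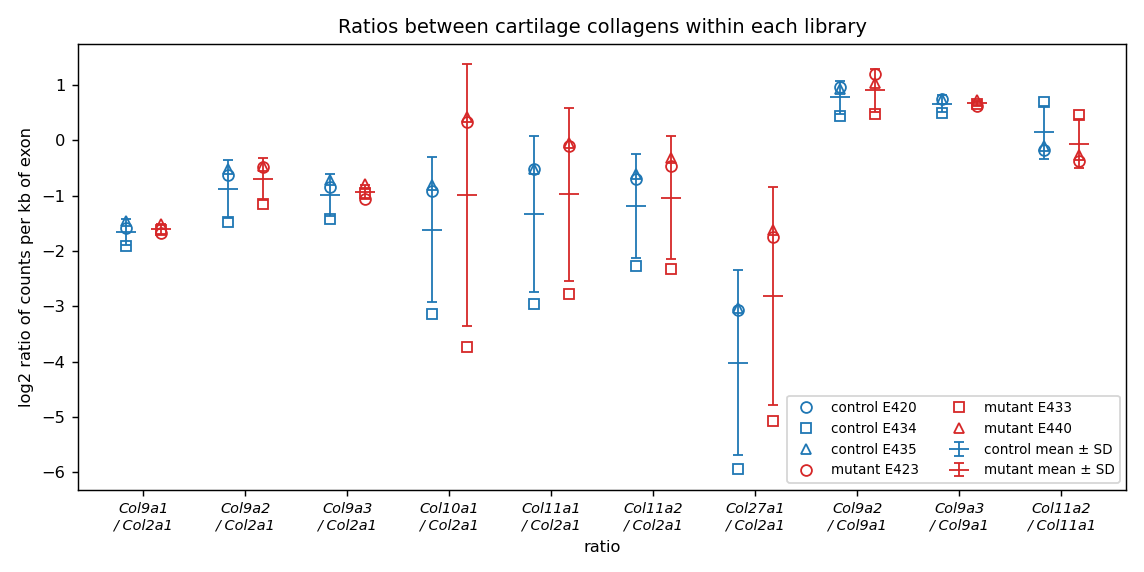
Log2 ratio of counts per kb of exon between cartilage collagen genes in each library, with the mean and SD of each group of 3. The *Col9a3* to *Col9a1* ratio moves 1.19-fold over all 6 libraries, the *Col10a1* to *Col2a1* ratio 17.7-fold and the *Col27a1* to *Col2a1* ratio 20.2-fold, and the groups overlap in all 10 ratios.

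Per exon length, the make-up of the collagen pool followed the same division. *Col2a1* RPKM (CPM per kb of exon) was 68.2, 1561 and 63.0 in the controls and 19.2, 533 and 17.6 in the mutants. *Col10a1* RPKM was 36.5, 179 and 36.1 in the controls and 24.2, 40.3 and 23.5 in the mutants. *Col2a1* thus had the highest RPKM of the 8 genes in all 3 controls and in E433, and *Col10a1* had the highest in mutants E423 and E440. Of the summed RPKM of the 8 genes, *Col10a1* made up 11.9%, 4.64% and 12.1% in the controls and 22.01%, 2.75% and 21.95% in the mutants. *Col2a1* made up 22.2%, 40.5% and 21.2% in the controls and 17.5%, 36.4% and 16.4% in the mutants. By this measure *Col27a1* had the lowest level in every library, from 5.72 to 25.4.

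In the order of geometric mean RPKM, controls had *Col2a1* first at 189, then *Col9a2*, *Col9a3*, *Col11a2*, *Col11a1*, *Col10a1*, *Col9a1* and *Col27a1* at 11.7. Mutants had *Col2a1* first at 56.4 and *Col27a1* last at 8.05, with *Col11a1* and *Col10a1* ahead of *Col11a2*. In both groups *Col2a1* was above *Col9a2* and *Col9a1* above *Col27a1* in 3 of 3 libraries, and the same held for *Col11a1* over *Col10a1* in the controls. All other neighbours changed places between libraries of a group, so their order was not distinguishable. By TPM from the second pipeline, *Col2a1* was highest in 5 of 6 libraries, and *Col11a1* was highest in E440, so the first place of *Col10a1* in E423 and E440 depended on the quantification. By TPM *Col9a1* was also below *Col27a1* in E423 and E440, so the last place of *Col27a1* there depended on it too.

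**Figure D4:**
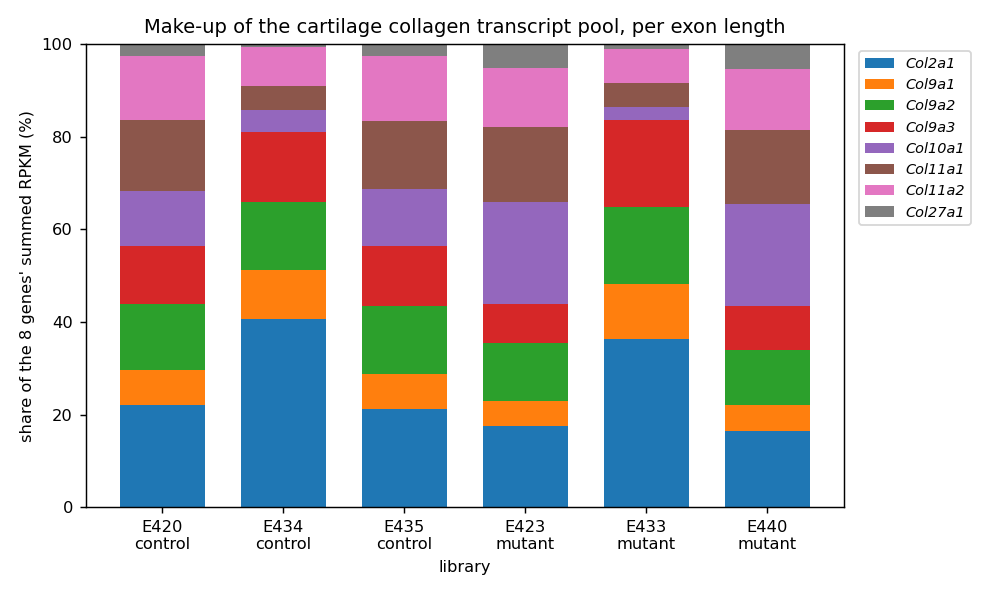
Share of each gene in the summed RPKM of the 8 cartilage collagens, stacked to 100% for each library. *Col2a1* takes 40.5% in E434 and 36.4% in E433 and at most 22.2% elsewhere, and *Col10a1* takes 22.01% in mutant E423 and 21.95% in mutant E440 against 2.75% in mutant E433.

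The likeness of profiles over the 6 libraries was measured as the root mean square (RMS) difference of log2 CPM, each gene centred on its own mean. *Col9a1* and *Col9a3* were the closest pair among the 8, with an RMS difference of 0.089, and *Col2a1* differed from *Col9a1* by 0.146. *Col10a1* lay far from *Col2a1*, at 1.59, and was nearest to *Col27a1*, at 0.429. Among 12995 candidate genes, the 5 outside the set that were most like *Col2a1* were *Epyc* (0.187), *Matn1* (0.287), *Cnmd* (0.308), *Matn3* (0.354) and *Meltf* (0.362), of which epiphycan and the matrilins are cartilage matrix proteins. Those most like *Col10a1* were *Loxl4* (0.326), *Chst11* (0.345), *Scin* (0.351), *Slc41a2* (0.363) and *Trpv4* (0.387). *Chst11* codes for a chondroitin sulfotransferase and *Trpv4* for a cation channel of chondrocytes. With 6 libraries of which 2 stand apart within their groups, these distances rest mainly on E434 and E433.

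Other genes of cartilage were examined as lists. The 11 non-collagen cartilage matrix genes behaved as *Col2a1* did: their summed CPM was 245, 3861 and 247 in the controls and 90.6, 1529 and 88.4 in the mutants. All 11 log2 fold changes were below 0, with a median of -1.34, and 0 of 11 passed both edgeR limits or an unadjusted p of 0.05. The changes furthest from 0 were those of *Matn3* (-1.95 ± 1.66), *Comp* (-1.69 ± 1.44), *Snorc* (-1.48 ± 1.56) and *Ucma* (-1.43 ± 1.58, SE).

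Among 10 regulators of chondrocytes, edgeR called 0 and DESeq2 called 1, *Runx2*. All mutants were below all controls (8.21% of all genes), with an unadjusted edgeR p under 0.05 (10.6%), for 2 of the 10. These were *Runx2*, the regulator of hypertrophy and of osteoblasts, with a log2 fold change of -1.13 ± 0.176 (edgeR adjusted p = 0.155, DESeq2 adjusted p = 2.6e-06), and *Pth1r*, the receptor of PTHrP, with -0.46 ± 0.133 (edgeR adjusted p = 0.389). *Runx2* measured 34.1, 44.6 and 30.9 CPM among controls, against 14.7, 19.4 and 15.9 among mutants. *Ihh*, the signal from prehypertrophic cells, had a log2 fold change of -1.75 ± 1.07, *Nkx3-2* one of -1.09 ± 1.27 and *Sox5* one of -0.53 ± 0.789 (SE). *Sox9*, the factor upstream of the fibril collagens, measured 20.997, 105 and 19.2 CPM among controls, against 19.7, 70.3 and 19.4 among mutants. *Sox9* CPM in E423 and E440 thus lay close to that in E420 and E435, whereas the mean *Col2a1* CPM of E423 and E440 was 0.280 times that of E420 and E435. The RNA was not separated by cell type, so the level of *Sox9* in chondrocytes was not measured and the contrast was not tested.

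Of the 8 genes of hypertrophy and matrix turnover, unlike the collagens, 7 had all mutants below all controls and an unadjusted edgeR p under 0.05. Over all genes the shares were 8.21% and 10.6%, and edgeR called 0 of the 8. The list does not stand for hypertrophic cartilage alone. It shares *Ibsp* with the osteoblast markers, and the study places *Spp1* with osteoblast formation and mineralization. Their summed CPM was 2034, 2142 and 2109 in the controls and 1010, 396 and 991 in the mutants. The largest part of it was *Ibsp*, at 923, 887 and 967 CPM in the controls and 619, 247 and 605 in the mutants. E434 did not stand apart from the controls here, and E433 was the lowest library. *Mmp13*, the collagenase of hypertrophic cartilage, measured 200, 207 and 209 CPM among controls, against 35.1, 4.29 and 37.8 among mutants, with a log2 fold change of -2.995 ± 0.730 (edgeR adjusted p = 0.346). The other changes furthest from 0 were those of *Spp1* (-2.38 ± 0.535), *Mmp9* (-1.81 ± 0.617) and *Alpl* (-1.68 ± 0.269, SE). DESeq2 called 3 of the 8.

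Of 11 collagens nearest to these in structure or assembly, 6 had all mutants below all controls and an unadjusted edgeR p under 0.05. Over all genes the shares were 8.21% and 10.6%. Of the 11, 0 passed both edgeR limits and DESeq2 called 1, *Col8a1*. The largest changes were those of the short-chain collagen genes *Col8a2* (-1.30 ± 0.467) and *Col8a1* (-1.24 ± 0.248), relatives of *Col10a1*, then *Col24a1* (-0.87 ± 0.078, edgeR adjusted p = 0.077) and *Col1a1* (-0.65 ± 0.210, SE). *Col24a1*, which like *Col27a1* is a minor fibrillar chain, measured 63.1, 68.0 and 60.6 CPM among controls, against 34.0, 36.6 and 34.4 among mutants. Its groups were apart, E434 and E433 lay with the rest, and it passed the adjusted p but not the fold limit.

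The 15 genes for collagen modification, folding and processing all had log2 fold changes below 0, with a median of -0.33, and edgeR and DESeq2 each called 0 of 15. Only *Pcolce*, the enhancer of procollagen C-proteinase, had all mutants below all controls (8.21% of all genes), at an unadjusted edgeR p of 0.0288. The changes furthest from 0 were those of *P4ha1* (-0.75 ± 0.340), *Adamts3* (-0.71 ± 0.807), *Plod2* (-0.65 ± 0.492) and *P3h1* (-0.52 ± 0.310, SE), which code for prolyl hydroxylases, a procollagen N-proteinase and a lysyl hydroxylase.

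Markers of other tissues also differed between the libraries, each list in its own order, and their part in the collagen differences was not tested. The 6 keratinocyte markers had a summed CPM of 4638, 9.46 and 5058 in the controls and 24520, 2776 and 24230 in the mutants, so that the order of the libraries was nearly the reverse of that of *Col2a1*. *Flg* and *Dsg1a* were at 0 counts in E434, the library with the most collagen. All 6 had log2 fold changes above 0, with a median of 1.87, and edgeR called 0 of 6 and DESeq2 1, *Flg*. That call rested on E423 and E440, with 22712 and 22215 *Flg* counts, as mutant E433 had 5 and the controls at most 4. The 6 adipocyte markers had a summed CPM of 138 to 150 in the controls and 212 to 650 in the mutants. All mutants were above all controls for 6 of 6, beside 6.81% of all genes, and edgeR called 0 and DESeq2 6 of them. The 6 skeletal muscle markers had a summed CPM of 9743 to 16683 in the controls and 12883 to 21708 in the mutants, with 5 of 6 log2 fold changes above 0. The 5 hepatocyte markers had a summed CPM of 29.8 to 45.5 in the controls, 28.8 and 28.9 in mutants E423 and E440, and 581 in mutant E433. The 5 erythroid markers had a summed CPM of 18006 to 22454 in the controls and 7505 to 14393 in the mutants. All mutants were below all controls for 4 of 5, beside 8.21% of all genes.

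Markers of the skeletal tissues were read beside the tissue label. The 6 chondrocyte markers, which include *Col2a1*, were detected in every library, with a summed CPM of 767, 16459 and 715 in the controls and 240, 5745 and 224 in the mutants. Most of that sum was *Col2a1* itself, for example 631 CPM in E420 and 4927 in E433, so it is not an independent check. In E420, E435, E423 and E440 the keratinocyte sum was above the chondrocyte sum. All mutants were below all controls for 6 of 6 osteoblast markers, beside 8.21% of all genes. These markers had a summed CPM of 11728, 15972 and 10915 in the controls and 8208, 8067 and 7811 in the mutants. Most of that sum was *Col1a1*, at 10649 CPM in E420 and 7787 in E433. With each gene weighted equally, the mean log2 ratio to the controls was -1.21, -2.07 and -1.20 in E423, E433 and E440, so E433 was lowest. *Phex*, an osteocyte and osteoblast peptidase gene, was the only listed gene called by edgeR, with a log2 fold change of -1.68 ± 0.124 (edgeR adjusted p = 0.077). The 3 tendon markers had a summed CPM of 124 to 196 in the controls and 68.6 to 93.0 in the mutants.

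**Figure D5:**
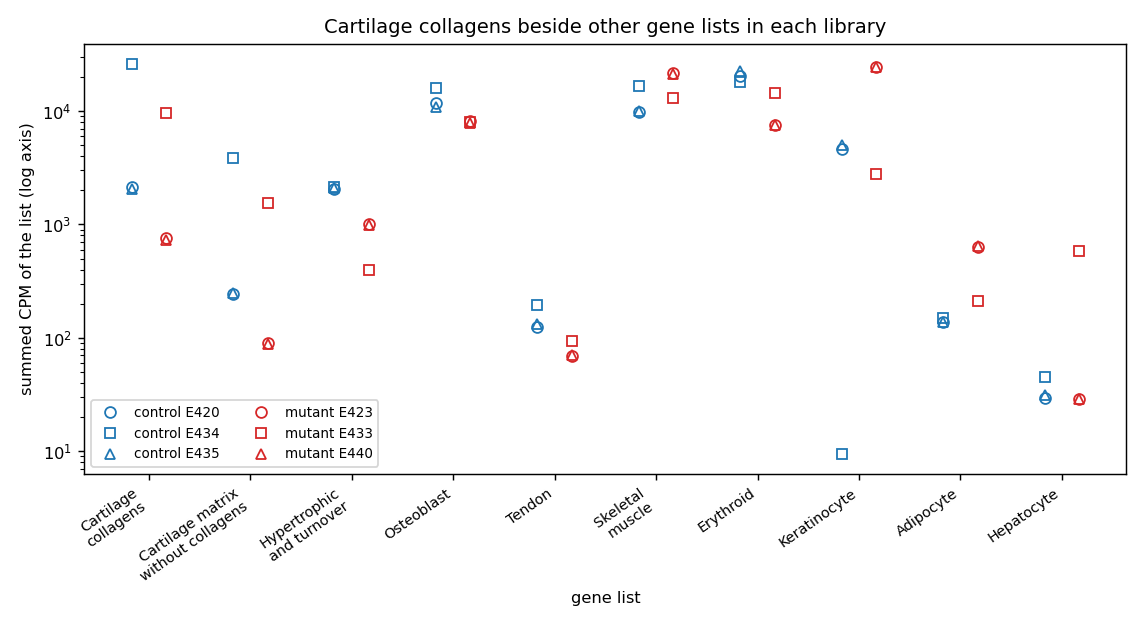
Summed CPM of the cartilage collagens and of 9 other gene lists in each library, on a log axis, with controls in blue and mutants in red. The collagens and the other cartilage matrix genes are highest in E434, then in E433, and lowest in E423 and E440, the osteoblast and hypertrophic lists have all mutants below all controls, and the keratinocyte list runs from 9.46 in E434 to 24520 in E423.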

How the data were processed

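RNA-Seq of rib cages from 3 control and 3 mutant embryos at 16.5 dpc was re-analysed from the deposited tables. Raw gene counts had been made by the authors with HISAT2 2.1.0 and featureCounts 1.6.0 (primary alignments over exons by gene ID, GRCm38). Per the labels and file headers, a second deposited set held RSEM 1.2.31 expected counts, effective lengths and TPM values from STAR 2.7.6 alignments. The versions are those of the submitters' processing notes. The count table gave 1.95 to 1.96 counts for each RSEM fragment, so both mates of a read pair were counted.

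The 26596 genes whose counts over all 6 libraries came to 10 or more were tested with edgeR 4.0.16 (R 4.3.3; TMM, glmQLFit, glmQLFTest, Benjamini-Hochberg over all genes). Calls required an adjusted p below 0.1 together with an absolute log2 fold change of 1 or more. The SE is the size of the log2 fold change divided by the square root of F. DESeq2 1.42.0, other scalings and filters, RSEM counts rounded to whole numbers, a cartilage matrix covariate and left-out libraries were alternatives. Ratios used counts per kb of exon and the exact permutation test (scipy, 2-sided). The steps were tested on simulated data with known answers.

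Groups came from the genotype labels, and no batch or litter was labelled. The replicates are separate embryos. Deposited tables of the authors' own comparisons (fold changes and p-values) and their 12 columns of values per sample were not used. The family of members, the lists and the tests were chosen with earlier results of these data known, although no measured value enters the rule for membership. The text names the members, *Foxc1*, *Foxc2*, the 4 genes with the largest change in each cartilage list it describes, listed genes past the limits, and the 5 genes most like *Col2a1* and *Col10a1*. The libraries' *Sox9*, *Pth1r*, *Pcolce*, *Flg* and *Dsg1a* values were singled out after they were seen.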

Additional observations from a re-analysis of the deposited data

How the results depend on the processing

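The 8 log2 fold changes stayed below 0 under median-of-ratios and upper quartile scaling, DESeq2, the robust fit, other low-count filters and RSEM expected counts, and no member was called under any of these. Leaving out E434 and E433 gave 6 called members, and leaving out single libraries gave 0. With the cartilage matrix covariate *Col27a1* turned to 0.024. Leaving out single libraries took the log2 fold change from -4.94 to 1.53 for *Col2a1*, -4.65 to 1.45 for *Col9a1*, -4.03 to 1.02 for *Col9a2*, -4.50 to 1.36 for *Col9a3*, -3.28 to 0.10 for *Col11a2* and -1.26 to 0.20 for *Col27a1*, the positive values coming without E434. The range was -1.88 to -0.31 for *Col10a1* and -2.48 to -0.29 for *Col11a1*. The count over all genes was 17, against 477 with DESeq2, 35 with the robust fit, 37 without a low-count filter, 10 with RSEM counts, 257 with the covariate, 2066 without E434 and E433, and 0 to 1087 without single libraries (0 without E420, E435, E423 or E440, where 1450 to 1698 genes had an unadjusted p under 0.05 in edgeR). The cause of these shifts was not tested.

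Of the 10 ratios, 0 had groups apart in all 6 libraries, 8 without E434 and E433, and 0 to 7 without single libraries. The smallest possible exact permutation p was 0.33 without E434 and E433 and 0.2 without a single library, so these counts are a description only. Without E434 and E433 the log2 difference changed sign for *Col9a1* to *Col2a1* (-0.068), *Col9a3* to *Col2a1* (-0.14) and *Col9a3* to *Col9a1* (-0.075). Without single libraries the log2 differences ran from -0.14 to 1.99 for *Col10a1* to *Col2a1*, -0.46 to 1.25 for *Col11a1* to *Col2a1*, -0.39 to 0.80 for *Col11a2* to *Col2a1*, -0.075 to 0.15 for *Col9a1* to *Col2a1*, -0.12 to 0.40 for *Col9a2* to *Col2a1*, -0.16 to 0.20 for *Col9a3* to *Col2a1*, -0.048 to 0.34 for *Col9a2* to *Col9a1*, -0.081 to 0.047 for *Col9a3* to *Col9a1* and -0.46 to 0.075 for *Col11a2* to *Col11a1*. Only *Col27a1* to *Col2a1* kept its sign throughout, from 0.24 to 2.34. No paired analysis was possible because the embryo numbers pair no control with a mutant and, although the study describes littermate comparisons, no label says which embryos share a litter. Depth did not limit the collagens.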
